A study of Oryza sativa Japonica Group with 20 samples.

Results

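The phenylpropanoid and lignin enzyme genes described here are 10 rice genes, picked by locus ID from the 34555 locus IDs in the RNA-seq tables. They code for 5 phenylalanine ammonia-lyases (PAL), a cinnamate 4-hydroxylase (C4H), a 4-coumarate:CoA ligase (4CL3), a caffeate O-methyltransferase (COMT1), a caffeoyl-CoA O-methyltransferase (CCoAOMT) and a cinnamyl alcohol dehydrogenase (CAD2). They are a given list of locus IDs that holds 5 of the 9 PAL IDs considered here; the other 4 are described with the remaining pathway genes. The tables carry locus IDs with no gene names, so all enzyme names are general knowledge and were not checked against an annotation of these IDs.

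The phenylpropanoid pathway begins when PAL removes ammonia from phenylalanine to give cinnamate. C4H hydroxylates cinnamate to p-coumarate, and 4CL joins the product to coenzyme A. Methyltransferases and reductases then make the monolignols, the alcohols that polymerise into lignin in the thickened walls of vessels and fibres, while side branches lead to flavonoids and to defence compounds.

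The study asked how the DELLA protein SLR1, the rice repressor of gibberellin (GA) responses, and GA itself act on gene expression and on the histone mark H3K27me3. Seedling RNA was sequenced in 4 groups of 3 libraries. SLR1 knockout seedlings (slr1), aged 12 days, were compared with wild-type seedlings of the same age, labelled NIP. In the other experiment, wild-type seedlings given 100 uM GA through the roots for 1 h were compared with wild-type control seedlings. All 4 groups grew on Murashige and Skoog medium, and the GA and control seedlings are both wild type by their labels. No source used here gives the kind of slr1 mutation, the number of independent slr1 lines or the age of the seedlings in the GA experiment. The labels also do not say whether the replicates were separate cultures, so p-values measure the spread between these libraries, which may be technical.

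The deposited values are read counts divided by a size factor for each library, called normalised reads below. They are not divided by gene length, so the level of a gene is compared between libraries. Shares and sums over several genes count reads and do not rank genes by expression. Recovered totals were 27778578 to 28010807 reads per library in the slr1 experiment and 17919838 to 20979965 in the GA experiment. SLR1 itself, LOC_Os03g49990, had 7310, 6380 and 7444 normalised reads in slr1 and 6133, 6810 and 7340 in wild type (adjusted p = 0.759, limma). That level does not check the genotype label, because a mutation can leave the transcript in place. The libraries of the slr1 experiment varied far more than those of the GA experiment. For each pair of replicates, the squared difference per gene was divided by that expected from read counting alone. Averaged over genes, this was 18.6 to 88.6 in the slr1 experiment and 1.88 to 2.96 in the GA experiment. Wild-type replicates 1 and 3 stood apart from wild-type replicate 2 in 3 defence genes, whose summed level was 2256, 673 and 656 normalised reads in slr1 and 22096, 1593 and 36911 in wild type. PAL also feeds defence compounds, so some of the results below are also given with wild-type replicate 2 as the only wild-type library. Whole seedlings were sampled, so a change in the share of a cell type and a change in RNA per cell cannot be told apart.

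In slr1 seedlings the 10 described genes were mostly higher than in wild type. Of the 10 genes, 5 rose and 0 fell, where a gene rose or fell if limma gave an adjusted p under 0.05 and at least a 2-fold difference. Across the 25132 genes tested, 6.57% rose by the same rule and 7.14% fell. The 10 genes were chosen with earlier results of these data known, so shares over all genes, here and below, are a description. Outside the 10, 2 PAL genes fell, as given below. Of the 10, those that rose were 3 of the 5 PAL genes, 4CL3 and CAD2. All 3 slr1 libraries lay above all 3 wild-type libraries for 8 of the 10 genes, against 22.8% of all genes tested, and below them for 0, against 22.3%. By limma, 8 of the 10 were higher at an unadjusted p under 0.05, against 19.3% of all genes tested. By edgeR 6 rose, against 6.98% of all genes tested, and 0 fell, against 7.26%. The median log2 fold change was 1.09 over the 10 genes and 0.01 over all genes tested. In the authors' deposited table, 7 of the 10 had an adjusted p under 0.05 and were at least 2-fold higher, against 7.05% of the 28577 genes with an adjusted p there.

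**Figure D1:**
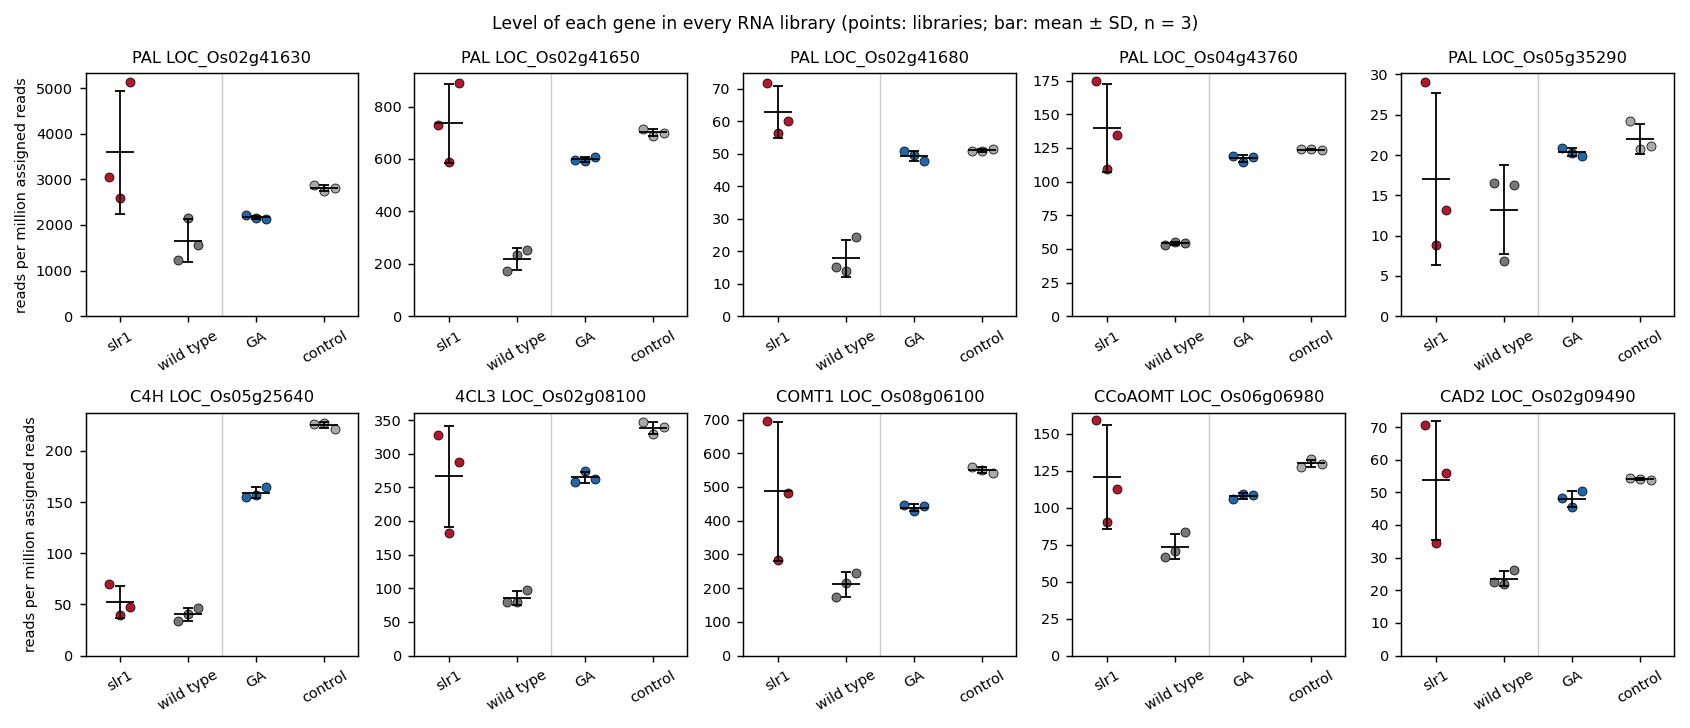
Level in RPM (linear axis from 0) of the 10 genes in each library, with slr1 left of wild type and GA left of control in each panel; points are libraries and bars are mean ± SD (n = 3). The slr1 points lie above all wild-type points for 8 genes, and the GA points lie below all control points for 8 genes, with a narrow spread.

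The plot of levels by library uses RPM, recovered reads scaled to the same total in each library, so that all 4 groups share an axis. PAL commits phenylalanine to the pathway, and 4 of the 5 PAL genes had higher reads in every slr1 library than in any wild-type library. LOC_Os02g41680 had 2032, 1548 and 1632 normalised reads in slr1 and 411, 414 and 686 in wild type. The lowest slr1 library was above the highest wild-type library by more than the spread within either group. The gene rose by a log2 fold change of 1.82 (SE 0.22, adjusted p = 0.00336, limma), the largest among the 10.

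LOC_Os02g41650 had 20604, 16103 and 24237 normalised reads in slr1 and 4647, 6957 and 7100 in wild type. Every slr1 library was again above every wild-type library, and the log2 fold change was 1.71 (SE 0.23, adjusted p = 0.00400, limma). LOC_Os04g43760 had 4932, 3001 and 3654 normalised reads in slr1 and 1427, 1627 and 1543 in wild type. Its wild-type libraries were close together and its slr1 libraries spread more widely, with a log2 fold change of 1.30 (SE 0.18, adjusted p = 0.00468, limma). These 3 PAL genes kept their calls when any 1 library was left out.

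LOC_Os02g41630 had 86211, 71108 and 139522 normalised reads in slr1 and 33423, 64226 and 44085 in wild type. The groups did not overlap, but slr1 replicate 2 and wild-type replicate 2 were close. The log2 fold change was 1.06 (SE 0.36), with an adjusted p of 0.0709 by limma and 0.0564 by edgeR, so the gene did not pass. The authors' deposited table gives it an adjusted p of 0.00574. With wild-type replicate 2 as the only wild-type library its log2 fold change was 0.56.

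LOC_Os05g35290 was the PAL gene that did not separate the groups. It had 821, 242 and 359 normalised reads in slr1 and 446, 202 and 462 in wild type. The first slr1 library was above all others, and the remaining slr1 libraries lay inside the wild-type range. The log2 fold change was 0.26 (95% interval -0.91 to 1.43, adjusted p = 0.734, limma), and it was -0.23 without slr1 replicate 1 and -0.13 without wild-type replicate 2. Several PAL genes stand close together in the ID order of chromosome 2, and no source used here says how reads shared between near-identical copies were assigned. The split of reads among those copies is therefore uncertain.

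C4H, the enzyme after PAL, did not pass the test in slr1. LOC_Os05g25640 had 1982, 1091 and 1285 normalised reads in slr1 and 921, 1193 and 1324 in wild type. The groups overlapped, with slr1 replicate 2 below 2 of the wild-type libraries. The log2 fold change was 0.31 (95% interval -0.26 to 0.88, adjusted p = 0.380, limma).

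4CL3, which makes the coenzyme A thioester of p-coumarate, had 9287, 4999 and 7830 normalised reads in slr1 and 2129, 2362 and 2749 in wild type. The lowest slr1 library was well above the highest wild-type library. LOC_Os02g08100 rose by a log2 fold change of 1.57 (SE 0.23, adjusted p = 0.00548, limma), and the call held without any 1 library.

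The methyltransferases add the methoxy groups that separate guaiacyl and syringyl lignin units from p-hydroxyphenyl units. COMT1, LOC_Os08g06100, had 19646, 7731 and 13144 normalised reads in slr1 and 4647, 6408 and 6936 in wild type. Its slr1 libraries were all above wild type but differed from each other by more than the wild-type libraries did. The log2 fold change was 1.09 (SE 0.34, adjusted p = 0.0539, limma), so COMT1 did not pass. By edgeR the adjusted p was 0.0408, and without slr1 replicate 2 limma gave a log2 fold change of 1.44 and an adjusted p of 0.0174.

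CCoAOMT, LOC_Os06g06980, had 4509, 2477 and 3063 normalised reads in slr1 and 1804, 2104 and 2350 in wild type. The groups did not overlap, but slr1 replicate 2 was close to wild-type replicate 3. The log2 fold change was 0.65 (95% interval 0.12 to 1.18), with an adjusted p of 0.0770 by limma. Without slr1 replicate 2 the adjusted p was 0.0414, still under 2-fold.

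CAD2, which reduces cinnamaldehydes to monolignols, had 1998, 941 and 1522 normalised reads in slr1 and 611, 648 and 739 in wild type. All slr1 libraries were above all wild-type libraries. LOC_Os02g09490 rose by a log2 fold change of 1.10 (SE 0.26, adjusted p = 0.0236, limma), close to the 2-fold limit. The call was lost when slr1 replicate 1, slr1 replicate 3 or any 1 wild-type library was left out, where the adjusted p reached 0.0758 or the log2 fold change went down to 0.85.

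**Figure D2:**
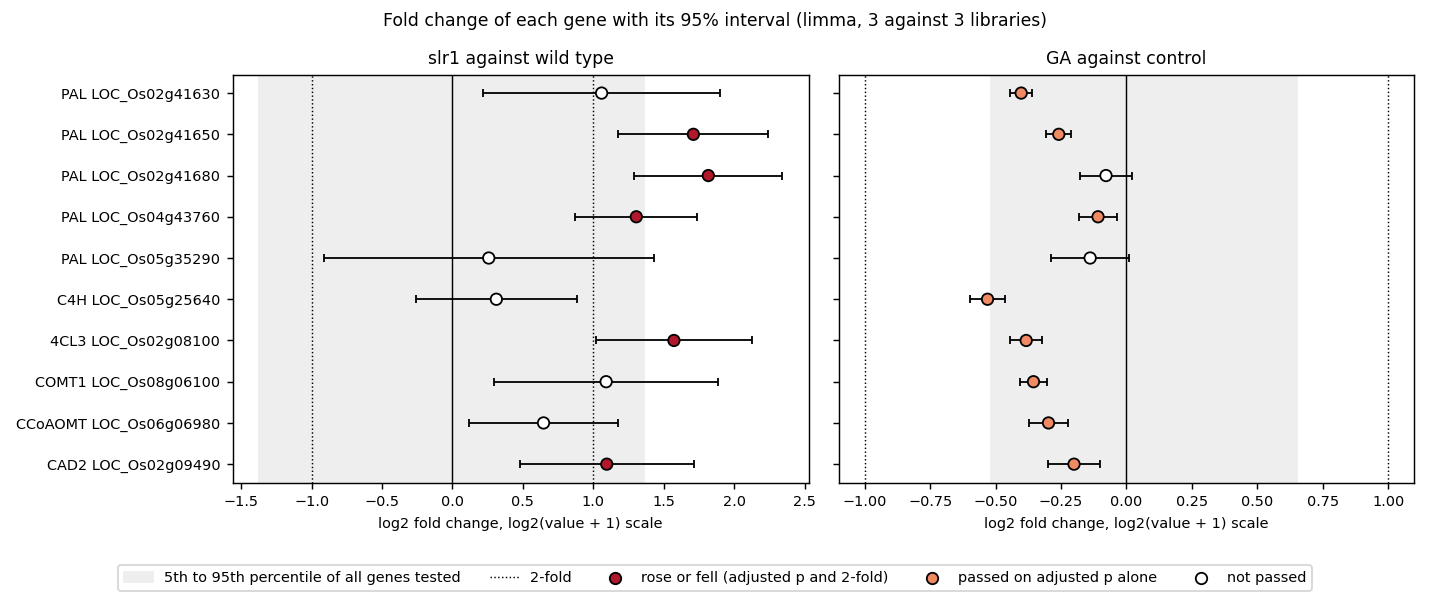
Log2 fold change of each of the 10 genes, slr1 over wild type on the left and GA over control on the right, with 95% intervals from limma. In slr1 every estimate is above 0, from 0.26 to 1.82, and after GA every estimate is below 0, from -0.53 to -0.08; dotted lines mark 2-fold and the grey band spans the 5th to 95th percentile of all genes tested.

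The plot of fold changes shows the width of the intervals in slr1 beside the narrow ones after GA. Within slr1 the spread had an order: slr1 replicate 2 was the lowest slr1 library for 10 of 10 genes, and slr1 replicate 1 was the highest for 8. In wild type, replicate 1 was the lowest for 9 of the 10 and replicate 3 the highest for 8. The 10 genes together took 0.538%, 0.399% and 0.722% of all reads in slr1 and 0.187%, 0.290% and 0.241% in wild type. Most of these reads came from PAL LOC_Os02g41630, which did not pass: 56.7% to 71.1% of them in slr1 and 64.9% to 74.6% in wild type. With wild-type replicate 2 as the only wild-type library, 0 of the 10 were called, while only 40 of all 25132 genes were. The 5 called genes then had log2 fold changes of 1.13 to 2.06.

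Of 38 other locus IDs of the pathway, 29 were tested in slr1, and 8 rose and 3 fell. Of all genes tested, 6.57% rose and 7.14% fell. The median log2 fold change of the 29 was 0.33, with 16 genes above 0 and 13 below. The genes that rose were a second C4H, 4CL1, the hydroxycinnamoyl transferases HCT1 and HCT2, which pass the p-coumaroyl group to shikimate, another CCoAOMT, the cinnamoyl-CoA reductase CCR19, CAD8D and PMT, which attaches p-coumarate to monolignols.

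PMT, LOC_Os01g18744, had 1248, 641 and 1020 normalised reads in slr1 and 160, 229 and 324 in wild type. No slr1 library came near wild type, and the log2 fold change was 2.03 (SE 0.32, adjusted p = 0.00658, limma), the largest rise among those called. The second C4H gene, LOC_Os02g26810, had 25.2, 10.8 and 18.5 normalised reads in slr1 and 3.87, 3.19 and 7.12 in wild type, and rose by a log2 fold change of 1.73 (adjusted p = 0.0317, limma). These are few reads, and the call was lost without any 1 library except slr1 replicate 2.

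The other CCoAOMT, LOC_Os08g38900, had 16957, 11580 and 9855 normalised reads in slr1 and 5079, 5574 and 5831 in wild type (log2 fold change 1.18, adjusted p = 0.00862, limma). HCT1, LOC_Os04g42250, rose by 1.01 and HCT2, LOC_Os02g39850, by 1.01 on the log2 scale. CCR19, LOC_Os09g25150, rose by 1.06, 4CL1, LOC_Os08g14760, by 1.25 and CAD8D, LOC_Os09g23560, by 1.39. For CAD8D the adjusted p was 0.0492 by limma and 0.0542 by edgeR, and its call was lost whichever library was left out. The 8 genes had no overlap between slr1 and wild type, but PMT alone among them kept its call without any 1 library. The C3H gene LOC_Os05g41440, whose enzyme hydroxylates the shikimate ester, was higher on adjusted p alone (log2 fold change 0.71), as 12.0% of all genes tested were. So were CAD1, LOC_Os10g11810 (0.46), and CAD8B, LOC_Os09g23540 (0.68). None of these 3 was stable: C3H no longer passed without any 1 wild-type library, and CAD1 and CAD8B without any 1 library except slr1 replicate 1.

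A pair of PAL genes went the other way in slr1. LOC_Os12g33610 had 1256, 3675 and 2143 normalised reads in slr1 and 10504, 14116 and 16588 in wild type. It fell by 2.65 on the log2 scale (SE 0.38, adjusted p = 0.00479, limma), and the call held without any 1 library. LOC_Os11g48110 had 3.03, 7.83 and 3.88 normalised reads in slr1 and 15.5, 39.4 and 38.6 in wild type, and fell by 2.42 on the log2 scale (adjusted p = 0.0143, limma), a call that was lost without wild-type replicate 3. Of the 9 PAL genes tested, 3 rose, 2 fell and 4 did not pass. CAD3, LOC_Os10g29470, had 119, 150 and 69.9 normalised reads in slr1 and 276, 335 and 364 in wild type and fell by 1.58 (adjusted p = 0.010, limma).

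**Figure D3:**
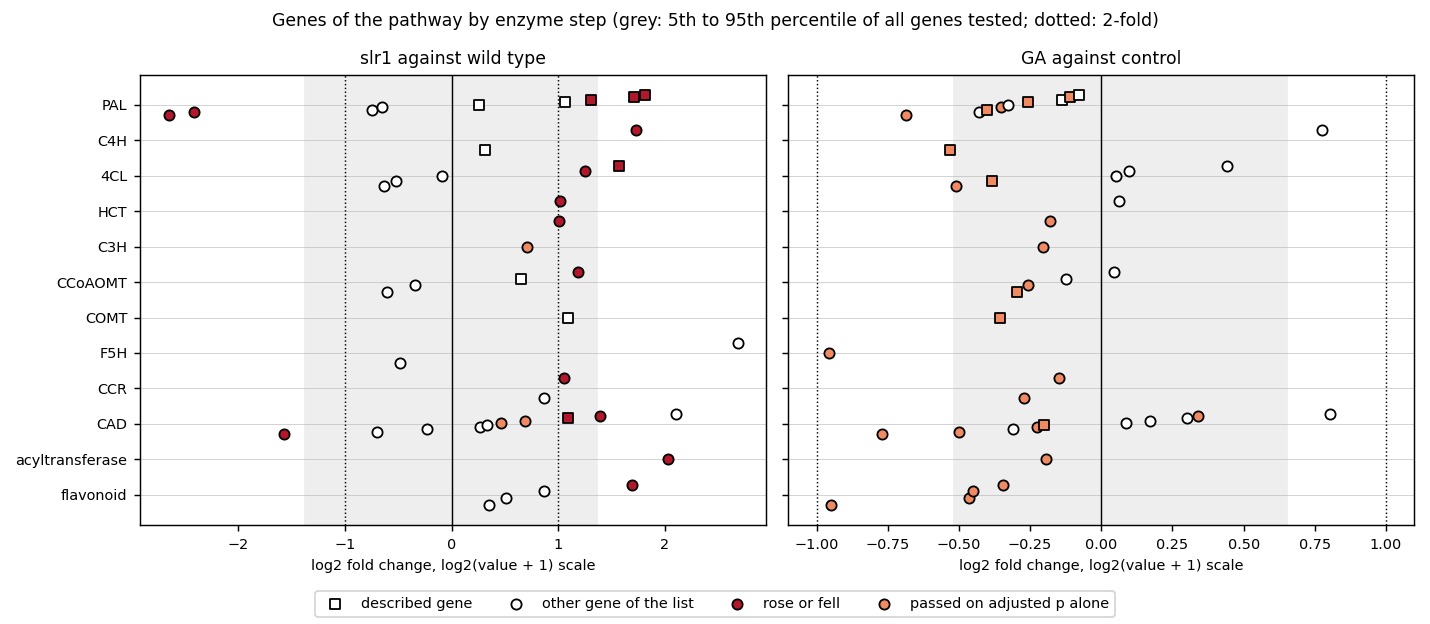
Log2 fold change of every tested pathway gene, ordered by enzyme class, for slr1 over wild type and for GA over control; squares are the 10 genes of the set and circles the other pathway genes. In slr1 the PAL class spans a fall of 2.65 to a rise of 1.82 on the log2 scale, and after GA no gene passes the 2-fold limit.

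The plot by pathway step shows that copies of 1 enzyme class often differed from each other in slr1. PAL and CAD held genes that rose and genes that fell. Both HCT genes rose, but only just past the 2-fold limit, HCT1 at a log2 fold change of 1.013 and HCT2 at 1.006. In the authors' deposited table HCT2 was at 0.995, under that limit. The count of 11 called among the other pathway genes went down to 5 without slr1 replicate 1 or wild-type replicate 1 and to 6 without slr1 replicate 3. Under upper-quartile scaling of all libraries the count was 8. With wild-type replicate 2 as the only wild-type library it was 0.

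The flavonoid branch uses the same CoA thioester that 4CL makes. Of its 7 IDs, 4 were tested in slr1 and 1 rose, where 6.57% of all genes tested rose: the flavone synthase FNSII, LOC_Os04g01140. It had 3272, 1636 and 2158 normalised reads in slr1 and 592, 760 and 761 in wild type (log2 fold change 1.69, adjusted p = 0.00549, limma). Chalcone synthase CHS1, LOC_Os11g32650, which opens the branch, had 7158, 3589 and 6221 normalised reads in slr1 and 1675, 5028 and 3160 in wild type, and these overlapped.

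Secondary-wall genes were counted as well, since lignin is laid down in such walls. In slr1, 5 of 8 rose, against 6.57% of all genes tested. They were the cellulose synthases CESA4, CESA7 and CESA9 of the secondary wall, the wall-assembly gene BC1 and the NAC regulator SWN1. Their log2 fold changes were 1.02 to 1.15, and CESA9 alone of the 5 kept its call without any 1 library. Over all 8 the median was 1.06, beside 1.09 for the 10 phenylpropanoid genes.

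The summed level of 5 leaf chloroplast genes was 233143, 162162 and 102156 normalised reads in slr1 and 421909, 684767 and 589467 in wild type. Of the 5, 3 fell, the RBCS genes, against 7.14% of all genes tested. Only RBCS3 of these kept its call without any 1 library: RBCS1 lost it without wild-type replicate 3, and RBCS2 without slr1 replicate 2, wild-type replicate 2 or wild-type replicate 3. The root marker RCc3, LOC_Os02g44310, had a mean of 388 ± 297 normalised reads in slr1 and 24.6 ± 14.2 in wild type (SD, n = 3 each) and rose by 3.85 on the log2 scale (adjusted p = 0.00734, limma). It was 1 of 2 root genes tested, where 6.57% of all genes tested rose. The other, Lsi1, did not pass (log2 fold change 0.28, adjusted p = 0.413, limma), and its groups overlapped. Of 3 defence genes, 1 was called: the regulator WRKY45, LOC_Os05g25770, fell by 2.48 on the log2 scale. The part of organ content and of defence in the phenylpropanoid result was not tested.

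**Figure D4:**
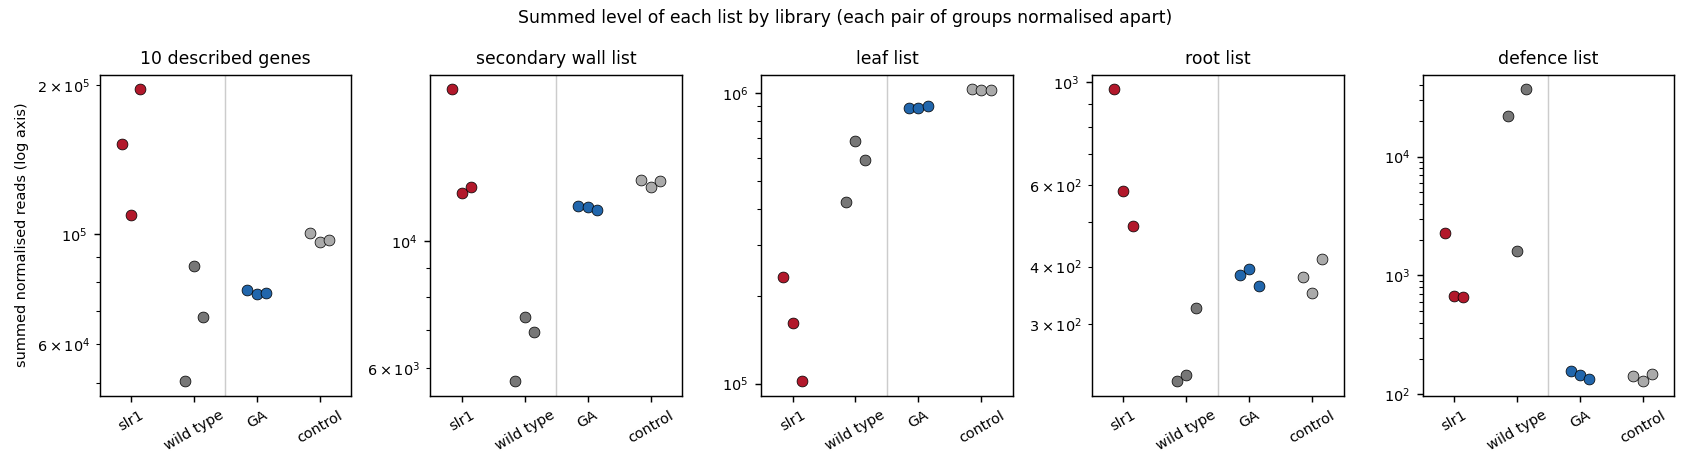
Summed normalised reads (log axis) of the 10 genes and of the leaf, root, secondary-wall and defence gene lists in each library, slr1 left of wild type and GA left of control. The 10 genes and the wall genes are higher in all slr1 libraries than in any wild-type library, the leaf genes are lower, and wild-type replicates 1 and 3 stand above replicate 2 in the defence genes.

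After 1 h of GA, all 10 genes were lower than in control seedlings, by small amounts. In normalised reads, the GA libraries lay below all control libraries for 10 of 10 genes, against 21.5% of all genes tested, and above them for 0, against 21.7%. In RPM, the groups overlapped for PAL LOC_Os02g41680 and LOC_Os05g35290. On adjusted p alone 8 of the 10 were lower, against 15.9% of the 23283 genes tested. By the rule that also asks for 2-fold, 0 of the 10 fell by limma and 0 by edgeR, where 0.996% of all genes tested fell by limma and 1.01% by edgeR. At an unadjusted p under 0.05, 8 of the 10 were lower, against 20.5% of all genes tested. The median log2 fold change was -0.28 over the 10 genes and -0.01 over all genes tested.

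C4H, which did not pass in slr1, had the largest difference after GA. LOC_Os05g25640 had 2973, 3007 and 3162 normalised reads after GA and 4441, 4440 and 4327 in control. The groups were far apart relative to their spread. The log2 fold change was -0.53 (SE 0.03, adjusted p = 1.57e-14, limma), a level 30.8% below control.

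Among the PAL genes, LOC_Os02g41630 had 42410, 41409 and 41033 normalised reads after GA and 56675, 53678 and 54693 in control (log2 fold change -0.40, adjusted p = 1.53e-16, limma). LOC_Os02g41650 had 11431, 11322 and 11651 normalised reads after GA and 14053, 13479 and 13634 in control (log2 fold change -0.26, adjusted p = 2.02e-10, limma). For both genes the libraries of a group lay within a few percent of each other. LOC_Os04g43760 had 2279, 2189 and 2273 normalised reads after GA and 2432, 2434 and 2403 in control, with a log2 fold change of -0.11 (adjusted p = 0.0166, limma) that did not pass without GA replicate 2 (adjusted p = 0.0898).

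The remaining PAL genes did not pass. LOC_Os02g41680, the gene with the largest rise in slr1, had 977, 948 and 914 normalised reads after GA and 999, 993 and 1004 in control. Its log2 fold change was -0.08 (95% interval -0.18 to 0.02, adjusted p = 0.226, limma). LOC_Os05g35290 had 402, 387 and 382 normalised reads after GA and 475, 405 and 412 in control, with a log2 fold change of -0.14 (95% interval -0.29 to 0.01, adjusted p = 0.150, limma).

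4CL3, LOC_Os02g08100, had 4964, 5241 and 5030 normalised reads after GA and 6818, 6438 and 6616 in control (log2 fold change -0.38, adjusted p = 3.98e-12, limma). COMT1, LOC_Os08g06100, had 8549, 8183 and 8502 normalised reads after GA and 10978, 10742 and 10561 in control (log2 fold change -0.36, adjusted p = 8.69e-13, limma). For both genes the highest GA library was well below the lowest control library. CCoAOMT, LOC_Os06g06980, had 2024, 2092 and 2079 normalised reads after GA and 2501, 2594 and 2521 in control (log2 fold change -0.30, adjusted p = 4.90e-08, limma). CAD2, LOC_Os02g09490, had 925, 872 and 965 normalised reads after GA and 1065, 1059 and 1047 in control (log2 fold change -0.20, adjusted p = 0.00173, limma). The 10 genes together took 0.401%, 0.395% and 0.397% of reads after GA and 0.512%, 0.492% and 0.498% in control.

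Among the other pathway genes, differences after GA were mostly downward. Of 28 tested, 13 were lower and 1 was higher on adjusted p alone, where 15.9% of all genes tested were lower and 17.1% higher. By limma or by edgeR, 0 of the 28 were called. An unadjusted p under 0.05 in either direction was reached by 17 of the 28, against 41.5% of all genes tested. CAld5H1, LOC_Os10g36848, the hydroxylase of the syringyl branch, had 166, 165 and 183 normalised reads after GA and 359, 338 and 304 in control. Its log2 fold change of -0.96 (adjusted p = 7.15e-10, limma) was the largest difference among them, just short of 2-fold, and it passed 2-fold without GA replicate 3 or control replicate 3. In slr1 it did not pass. The gene that was higher was CAD8B, LOC_Os09g23540 (log2 fold change 0.34).

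PAL LOC_Os12g33610, which fell in slr1, had 10741, 10508 and 10339 normalised reads after GA and 13436, 13307 and 13542 in control, a log2 fold change of -0.35 (adjusted p = 1.72e-13, limma). It was thus lower in both experiments. All 4 flavonoid genes tested were lower on adjusted p alone, against 15.9% of all genes tested. The flavonoid 3'-hydroxylase gene, LOC_Os10g17260, was lowest relative to control at -0.95 on the log2 scale.

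Among the context lists after GA, 5 of 5 leaf genes and 3 of 8 secondary-wall genes, the cellulose synthases, were lower on adjusted p alone. Of all genes tested, 15.9% were. CESA7 did not pass without GA replicate 3 or control replicate 3. The leaf genes differed by -0.33 to -0.09 on the log2 scale. RCc3 rose, with 45.0, 36.0 and 38.7 normalised reads after GA and 5.16, 1.86 and 3.73 in control, where 1.22% of all genes tested rose. The root silicon channel Lsi1 did not pass. Of 2 defence genes tested, 1 was lower on adjusted p alone, PR10a, which did not pass without GA replicate 3 or control replicate 3. Whether these move with the phenylpropanoid genes for a shared reason was not tested.

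In slr1, 5 of the 10 genes rose, and after 1 h of GA 8 of the 10 were lower on adjusted p alone. Of the 5 that rose in slr1, all but PAL LOC_Os02g41680 were lower on adjusted p alone after GA. The experiments have their own control libraries, ages that are not known to match, and separate normalisation, and the difference between the effects was not tested. Levels of all 4 groups are set side by side here in RPM, as a description. Wild-type seedlings of the slr1 experiment had the lowest mean for all 10 genes, below the control seedlings of the GA experiment, which are also wild type. The wild types of the 2 experiments also stood far apart in leaf genes: CAB2R, LOC_Os01g41710, averaged 80.0 ± 16.8 RPM in wild type and 9028 ± 285 in control, and CAB1R, LOC_Os09g17740, 68.4 ± 22.9 RPM in wild type and 8686 ± 188 in control (SD, n = 3 each). RBCS2, LOC_Os12g19381, averaged 8832 ± 1614 RPM in wild type and 10911 ± 204 in control. The part of these differences in the phenylpropanoid levels was not tested. C4H stood at 52.4 RPM in slr1 and 40.4 in wild type, and at 159 after GA and 225 in control. For 4 PAL genes slr1 had the highest mean of the 4 groups, and for the other 6 genes the control did. Neighbouring groups in that order overlapped for many genes. For LOC_Os02g41650, slr1 and control overlapped, while GA was apart from control and wild type was apart from GA. The GA libraries, at 596, 591 and 608 RPM, lay inside the slr1 range, since slr1 replicate 2 had 588 RPM.

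The level of each gene relative to PAL was then described, in each library. It is the log2 ratio to the mean log2 level of the 4 PAL genes other than LOC_Os05g35290. That reference was chosen after the values were seen, so the ratios carry no test. In slr1 those 4 PAL genes had log2 fold changes of 1.06 to 1.82, so a lower ratio there need not be a lower level. The C4H ratio was -2.91 ± 0.34 in slr1 and -1.75 ± 0.06 in wild type (SD, n = 3 each), with no overlap, and -0.89 ± 0.06 after GA and -0.57 ± 0.02 in control, again with no overlap. The CCoAOMT ratio differed by -0.83 between slr1 and wild type with no overlap, while those of 4CL3, COMT1 and CAD2 differed by 0.10, -0.38 and -0.38 and overlapped. The ratio of PAL LOC_Os05g35290 differed by -1.21 between slr1 and wild type and overlapped. After GA, the ratio of 4CL3 was lower by a difference of -0.17, that of COMT1 by -0.14 and that of CCoAOMT by -0.09, each with no overlap. Those of CAD2 and PAL LOC_Os05g35290 overlapped.

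**Figure D5:**
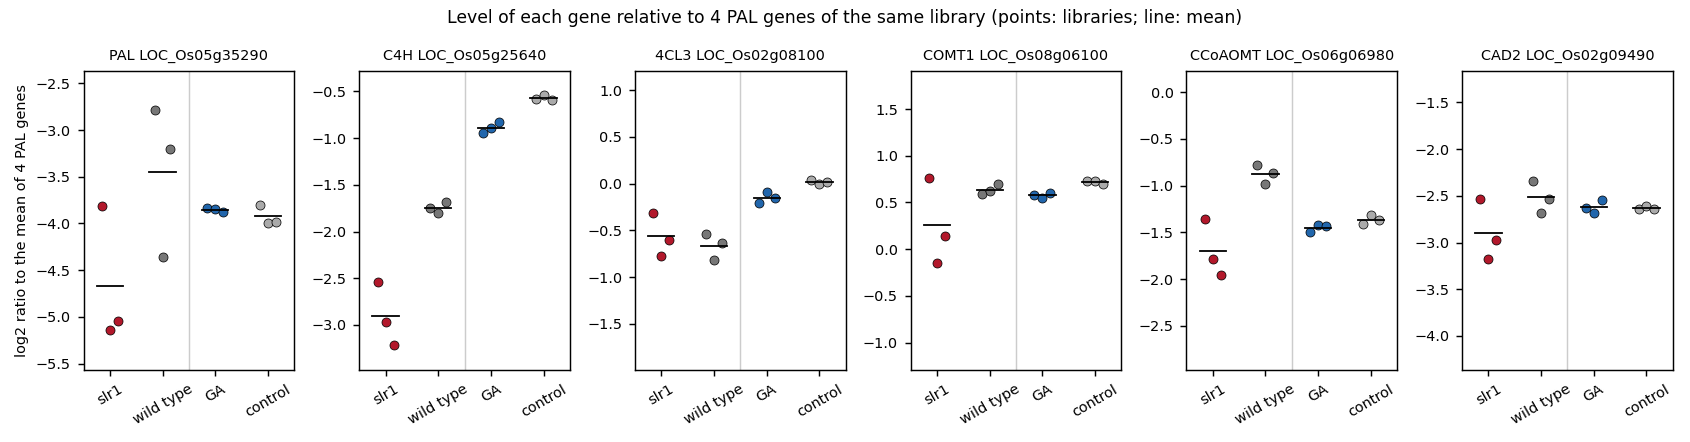
Log2 ratio of each gene to the mean of 4 PAL genes in each library, slr1 left of wild type and GA left of control. The C4H and CCoAOMT points lie below their comparison group in both experiments, with C4H means of -2.91 in slr1 and -1.75 in wild type. The height of a panel depends on gene length and is not compared between genes.

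Across the 12 libraries, with each experiment centred on its own mean, the 10 genes followed each other unevenly. Pearson's r over the 45 pairs was 0.00 to 0.98 with a median of 0.82, given as a description, since libraries share a normalisation and a depth. Against the mean of the other 9, 4CL3 had r = 0.99 and CAD2 r = 0.99, while C4H had r = 0.70 and PAL LOC_Os05g35290 r = 0.41. Among 22958 genes tested in both experiments, the closest to the mean profile of the 10 were LOC_Os01g01450 at r = 0.99 and LOC_Os06g12580, LOC_Os01g09450, LOC_Os08g08960 and LOC_Os01g14670 at r = 0.98 to 0.99. Their order was not stable: 0 to 3 of these 5 stayed among the closest 5 when 1 slr1 or wild-type library was left out. When 1 GA or control library was left out, 4 to 5 stayed.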

How the data were processed

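RNA was sequenced in 12 of the 20 samples of the series; 6 others are H3K27me3 ChIP libraries and 2 are inputs. Per the submitters' processing notes, HISAT2, featureCounts 2.0.0 and DESeq2 1.38.3 were used on the RNA. No source used here gives the genome build or the strand setting. The deposited values are a signal: gene read counts that the authors divided by a size factor per library. The deposited log2 fold changes and adjusted p-values were used only where the authors' table is named. All values, divided by the step of 1 read, came out whole within 0.01. The deposited peak tables, with the authors' scores, fold enrichment ratios and -log10 p-values, were not used, because 0 of the 34555 locus IDs matched the reference gene table, so no coordinates or sequences are given.

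Each table was fitted alone with limma 3.58.1 (R 4.3.3) on log2(value + 1), with trend, over genes reaching a value of 10 in 3 or more of the 6 libraries, and Benjamini-Hochberg adjustment over all of them. Fold changes are on that scale. A gene rose or fell at an adjusted p under 0.05 and at least 2-fold. The design assumed size-factor-scaled values. Alternatives were pseudocounts of 0.5 and 5, no filter, upper-quartile scaling, edgeR 4.0.16 on the recovered reads, a replicate block and each library left out; the fit was also tested on simulated data. Wild-type replicate 2 as the only wild-type library was added after seeing the data. The 10 genes and all lists were chosen with earlier results of these data known. All 10 passed the filter in both tables. Of the other lists, called genes were named, up to 10 by absolute fold change; further genes were chosen after their values were seen. Of 38 other pathway IDs, 18 carry a symbol that the reference table places on the chromosome in the ID.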

Additional observations from a re-analysis of the deposited data

How the results depend on the processing

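After GA, the fold changes of the 10 genes kept their sign under 12 alternatives, in 120 values, and all stayed under 2-fold; on adjusted p, PAL LOC_Os04g43760 did not pass without GA replicate 2. In slr1, under 13 alternatives and in 130 values, 116 kept their sign and side of the threshold, 10 no longer passed, 2 newly passed and 2 turned sign, both for PAL LOC_Os05g35290 (-0.23 without slr1 replicate 1 and -0.13 without wild-type replicate 2, within a range of -0.23 to 0.65 when 1 library was left out). With 1 library left out, 4 to 6 of the 10 genes were called in slr1 and 4 to 7 were higher on adjusted p alone, and 7 to 8 were lower on adjusted p alone after GA. Other pathway genes called ranged from 5 to 10 in slr1 and from 0 to 1 after GA, context genes called from 6 to 11 and from 1 to 2, and 0 to 5 of the 5 genes most like the set remained. With wild-type replicate 2 as the only wild-type library, each of these slr1 counts was 0; that alternative leaves a lone library assumed to vary like slr1. The edgeR test on recovered reads called 3579 genes in slr1 and 535 after GA, where limma called 3446 and 516. Replicate numbers were not shown to pair libraries (r of same-numbered deviations 0.09, 0.19 and -0.16 in slr1 and between -0.03 and -0.01 after GA); with the replicate block, 5 of the 10 genes were called in slr1 and 0 after GA, 12 other pathway genes were called in slr1, and 8 context genes, against 10 without the block. Under the block CAD8D (adjusted p = 0.0630), BC1 (0.0586), SWN1 (0.0614) and RBCS2 (0.0531) did not pass by limma, nor did CAD1 (0.0734) and CAD8B (0.0702). Alternatives for H3K27me3 peaks were not run.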
